A study of Mus musculus with 6 samples.

Results

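Selenof and 9 further selenoprotein genes (Selenow, Selenok, Selenot, Selenom, Selenop, Selenos, Gpx1, Gpx4 and Txnrd1) were followed in primary mouse neurons in which Kcna1 was targeted by CRISPR activation. Selenof was chosen by its measured values in these same libraries, for a large fall in Kcna1-dCas9A, so they are described without a test. The 9 others are further genes of the same family. All 10 were found by symbol among the 50508 symbols of the deposited tables, and they make up 10 of the 24 mouse selenoprotein genes listed here. In both groups a lentivirus brought in a nuclease-dead Cas9 fused to the activator VP160 under an Ef1α promoter, with a guide against LacZ in Ctrl-dCas9A (labelled sgLacZ, genotype control) and with the guide sg19 against the Kcna1 promoter in Kcna1-dCas9A (labelled sgKcna1, genotype CRISPRa-mediated Kv1.1 upregulation). Each group had 3 libraries of polyA RNA from whole cultures. The cultures came from newborn C57Bl/6J pups and are named cortical in the study's methods and hippocampal in the labels, and the methods also give differing times between transduction and RNA extraction. The study's methods state in general that experiments were repeated independently, but neither they nor the labels say that these libraries came from separate cultures. The p-values therefore measure only the spread between these libraries, which may be technical.

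Selenoproteins carry selenocysteine, a reactive relative of cysteine that is inserted where the ribosome reads a UGA codon, normally a stop signal. This reading requires a hairpin in the untranslated end of the mRNA (the SECIS element), a dedicated transfer RNA and its binding proteins. Most members with a known activity reduce peroxides, disulphides or oxidised thioredoxin, and a group of them sits in the endoplasmic reticulum (ER), where disulphides are formed and misfolded proteins are recognised. The brain retains selenium when supply is low, and loss of Gpx4 or of the selenium carrier Selenop harms neurons.

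The codons that define the family are shown because the members are ordered here by their selenocysteine motif and place in the cell. Each stretch is the coding strand around the selenocysteine codon, 5′ to 3′, in GENCODE vM1 transcripts of NCBIM37, with 4 codons on each side where the coding sequence was long enough. Capitals mark the TGA selenocysteine codon and any in-frame cysteine codon (TGC or TGT) in the window.
Selenof: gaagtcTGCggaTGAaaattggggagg
Selenot: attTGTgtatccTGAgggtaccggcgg
Selenow: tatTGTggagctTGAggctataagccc
Selenom: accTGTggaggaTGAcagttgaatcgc
Txnrd1: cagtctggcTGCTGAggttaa
Selenok: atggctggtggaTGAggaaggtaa
Selenos: tcatctggcggcTGAaactaa
Gpx1: gtcgcgtctctcTGAggcaccacgatc
Gpx4: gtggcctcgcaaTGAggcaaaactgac
In Selenof the codon lay at chr3:144253609-144253611 on the plus strand (NCBIM37), in exon 3 of 5 as codon 93 of 162, and the cysteine codon stood 2 codons before it. Selenot, Selenow and Selenom had theirs 3 codons before. In Txnrd1 the pair was adjacent at the end of the protein, with the selenocysteine codon as codon 498 of 499. Selenok and Selenos, both membrane proteins of the ER, carried the codon close to their end with no cysteine codon in the window, at codon 92 of 94 and codon 189 of 190. Gpx1 and Gpx4 carried it further inside the coding sequence, at codon 47 of 201 and codon 129 of 253. Selenop, not shown, had 10 such codons, and of the 24 genes listed 23 were matched in the annotation, 21 of them with a single selenocysteine codon.

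The deposited values are whole numbers that sum to between 999047 and 999717 in each library, and were treated as per-million values rounded by the authors. How many reads they rest on is unknown, and values of a few units carry large rounding error. Kcna1 was listed at 16 in each control (Ctrl-dCas9A) library and at 68, 47 and 65 with Kcna1-dCas9A, with an adjusted p of 0.034 (limma with Benjamini-Hochberg adjustment). Of 19504 genes above 0 in at least 1 library, 68 were higher and 158 lower in Kcna1-dCas9A at an adjusted p under 0.05, which is 0.349% and 0.81% of the genes tested (1.16% in all). The higher share of these calls was 30.1%, against 56.0% after median-of-ratios scaling and 59.6% after upper-quartile scaling, which moved the median log2 fold change of genes averaging at least 10 by 0.08 and 0.11. Calls also depended on Ctrl-dCas9A replicate 3. Leaving it out gave 2711 calls, whereas leaving out any other library gave 0 calls with limma, with between 3332 and 3853 genes at an unadjusted p under 0.05. Unless an alternative is named, p-values come from the fit over all 19504 genes. Fold changes are on log2(value + 1), a scale that understates the change of low genes.

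Selenof encodes a thioredoxin-like protein of the ER lumen that binds the glycoprotein folding sensor UGGT. The controls held 39, 34 and 18 units of it, against 7, 4 and 6 with Kcna1-dCas9A. The groups did not overlap, and the lowest control, replicate 3, was still above the highest Kcna1-dCas9A library. The means were 30.3 ± 11.0 and 5.67 ± 1.53 (SD, n = 3 each), a ratio of 5.35 between the means and a log2 fold change of -2.19. Leaving out each library in turn gave log2 fold changes between -2.52, without Ctrl-dCas9A replicate 3, and -1.98. As the gene was chosen for this difference, nothing is inferred from its size. Within Ctrl-dCas9A, replicate 3 was also the lowest control for Selenok, Selenot, Selenom, Selenos and Gpx4.

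**Figure D1:**
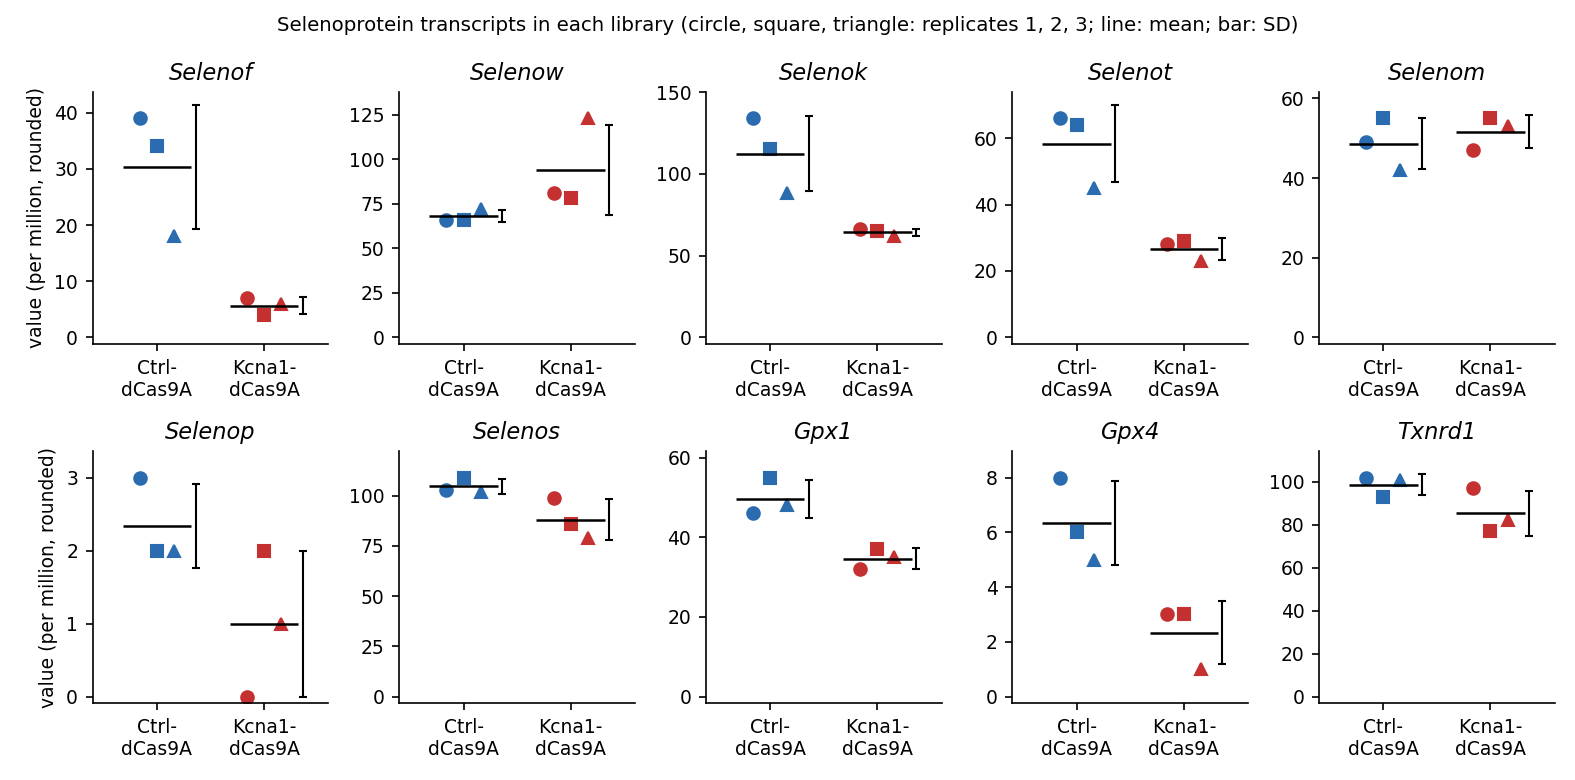
Rounded per-million value (vertical axis, own scale in each panel) of the 10 selenoprotein genes in the 3 Ctrl-dCas9A libraries (blue) and the 3 Kcna1-dCas9A libraries (red), with the mean as a line and the SD as a bar. The Kcna1-dCas9A libraries sit below all controls for Selenof, Selenok, Selenot, Selenos, Gpx1 and Gpx4 and above them for Selenow. The groups overlap for Selenom, Selenop and Txnrd1.

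Selenot, an ER membrane protein with a thioredoxin-like fold, fell in Kcna1-dCas9A and was the only one of the 9 other members past the threshold. It was listed at 66, 64 and 45 in the controls and at 28, 29 and 23 with Kcna1-dCas9A. All 3 Kcna1-dCas9A libraries were below all controls. The means were 58.3 ± 11.6 and 26.7 ± 3.21 (SD, n = 3 each), and the log2 fold change was -1.09 (standard error 0.18, 95% interval -1.51 to -0.66, limma adjusted p = 0.0496 with Benjamini-Hochberg adjustment). The call was narrow: it was kept under 9 of 16 alternatives and, among fits with 1 library left out, only without Ctrl-dCas9A replicate 3, with limma adjusted p-values from 0.019 to 0.163. The log2 fold change stayed between -1.26 and -0.97 under all 16. A Selenot pseudogene is annotated, and how reads matching both were counted is not given in the sources used here.

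Selenow and Selenom, small thioredoxin-like proteins with a motif of the same spacing as Selenot, had log2 fold changes above 0 that did not pass the test. Selenow, found mainly in the cytosol, was listed at 66, 66 and 72 in the controls and at 81, 78 and 123 with Kcna1-dCas9A. Each Kcna1-dCas9A library was above all controls, and replicate 3 was far above the other two. The log2 fold change of Selenow was 0.43 (95% interval 0.00 to 0.86) and did not pass (limma adjusted p = 0.211 with Benjamini-Hochberg adjustment). Without 1 library at a time it ranged from 0.22 to 0.55. Selenom, of the ER lumen, was listed at 49, 55 and 42 in the controls and at 47, 55 and 53 with Kcna1-dCas9A. Its groups overlapped, with a log2 fold change of 0.09 (95% interval -0.23 to 0.41) that changed sign to -0.01 without Ctrl-dCas9A replicate 3.

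Selenok and Selenos belong to the machinery that carries misfolded proteins out of the ER for degradation: Selenos anchors the ATPase VCP to the ER membrane, and Selenok also works with the palmitoyltransferase Zdhhc6. Selenok was listed at 134, 115 and 88 in the controls and at 66, 65 and 62 with Kcna1-dCas9A. The Kcna1-dCas9A libraries were tightly grouped below all controls, which were widely spread. The means were 112 ± 23.1 and 64.3 ± 2.08 (SD, n = 3 each), with a log2 fold change of -0.77 (95% interval -1.15 to -0.40), short of the threshold (limma adjusted p = 0.056 with Benjamini-Hochberg adjustment). It passed under 7 of 16 alternatives, among them median-of-ratios scaling (adjusted p = 0.020) and leaving out Ctrl-dCas9A replicate 3 (adjusted p = 0.019). Several Selenok pseudogenes are annotated, so that its reads are uncertain in the same way.

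Selenos was listed at 103, 109 and 102 in the controls and at 99, 86 and 79 with Kcna1-dCas9A. The groups were separated by a narrow gap. The log2 fold change was -0.25 (95% interval -0.51 to 0.01) and did not pass (limma adjusted p = 0.224 with Benjamini-Hochberg adjustment).

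Gpx1 and Gpx4 are glutathione peroxidases, the first acting on hydrogen peroxide in the cytosol and mitochondria, the second on lipid peroxides in membranes, where it holds back ferroptosis. Gpx1 was listed at 46, 55 and 48 in the controls and at 32, 37 and 35 with Kcna1-dCas9A. All Kcna1-dCas9A libraries were lower than all controls, with little spread within either group. The means were 49.7 ± 4.73 and 34.7 ± 2.52 (SD, n = 3 each), and the log2 fold change of -0.50 (95% interval -0.79 to -0.22) missed the threshold (limma adjusted p = 0.064 with Benjamini-Hochberg adjustment). It passed under 2 of 16 alternatives, those that tested only genes averaging at least 1 or at least 10.

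Gpx4 was listed at 8, 6 and 5 in the controls and at 3, 3 and 1 with Kcna1-dCas9A. The groups did not overlap, but all values were small enough for rounding to matter. The log2 fold change was -1.19 (95% interval -2.01 to -0.36), which did not pass (limma adjusted p = 0.099 with Benjamini-Hochberg adjustment). Gpx4 pseudogenes are annotated, so that reads of this gene could have been split or lost in the counting. For Gpx4 the log2 fold change was -1.53 with a pseudocount of 0.1 and -0.63 with 5, and the gene passed with no filter on low values, a fit in which most residual variances are 0 (limma adjusted p = 0.0086 with Benjamini-Hochberg adjustment).

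Txnrd1, the cytosolic reductase that keeps thioredoxin reduced, was listed at 102, 93 and 101 in the controls and at 97, 77 and 82 with Kcna1-dCas9A. Kcna1-dCas9A replicate 1 lay among the controls and the other two lay below them. The log2 fold change was -0.21 (95% interval -0.49 to 0.06, limma adjusted p = 0.302 with Benjamini-Hochberg adjustment). Selenop, the secreted carrier that brings selenium to the brain, was listed at 3, 2 and 2 in the controls and at 0, 2 and 1 with Kcna1-dCas9A. These values overlapped and lay within a few rounding units (log2 fold change -0.86, 95% interval -1.88 to 0.16, limma adjusted p = 0.268 with Benjamini-Hochberg adjustment). With pseudocounts of 0.1 and 5 the log2 fold change of Selenop was -1.96 and -0.30, and with 1 library left out it ran from -1.22 to -0.43.

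Across the 9 members other than Selenof, 1 of 9 was called lower and 0 were called higher, against 0.81% and 0.349% of all genes tested, and 5 of 9 had an unadjusted p under 0.05, against 23.2% of all genes. In 5 of 9 the Kcna1-dCas9A libraries were all below the controls and in 1 of 9 all above, against 13.3% and 8.98% of all genes tested. Separation was read from the values as deposited throughout and was not recounted under other scalings. Of the 9, 7 averaged at least 10. Among all genes averaging at least 10, 1.7% were called lower, 39.7% had an unadjusted p under 0.05, and the groups separated downwards in 23.9% and upwards in 15.9%. Of those 7 members, 1 was called, 4 had such a p, 4 separated downwards and 1 upwards, and their median log2 fold change was -0.25, against -0.06. The median log2 fold change of the 9 was -0.50, against -0.02 for all genes tested. These 9 were chosen with earlier results of these data known. Over all 21 selenoprotein genes above 0 other than Selenof the median was -0.18, with 1 called lower and 0 higher. After median-of-ratios scaling 2 of 9 (Selenot and Selenok) were called lower and 0 higher, against 3.89% and 4.94% of all genes. After upper-quartile scaling 2 of 9 were again lower and 0 higher, against 4.27% and 6.29%. Their summed value was 577, 565 and 505 in the controls and 453, 432 and 459 with Kcna1-dCas9A, so that the sums of the groups did not overlap.

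**Figure D2:**
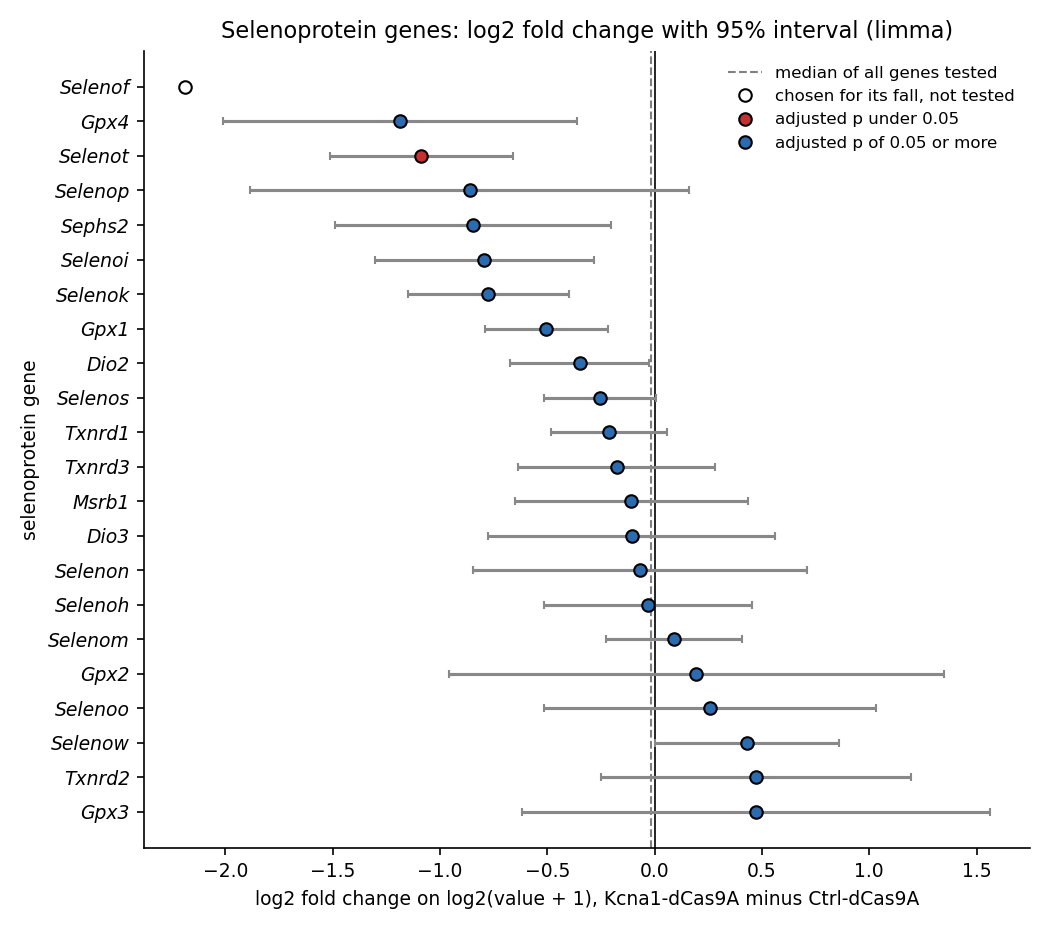
Log2 fold change (horizontal axis, Kcna1-dCas9A minus Ctrl-dCas9A on log2(value + 1)) of the 22 selenoprotein genes above 0, with the 95% interval of the limma fit except for Selenof (white), which was chosen for its difference. Selenot (red) had a limma adjusted p under 0.05, and the dashed line is the median of all genes tested, -0.02. Of the 21 points other than Selenof, 15 lie below 0, as do 10886 of the 19504 genes tested.

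The 14 selenoprotein genes outside the chosen 10 were followed in the same way. Dio1, a thyroid hormone deiodinase, and Selenov were listed at 0 in every library. Of the 12 tested, 0 passed in either direction with limma, 3 had an unadjusted p under 0.05, against 23.2% of all genes, and the median log2 fold change was -0.09. In 3 of 12 (Selenoi, Sephs2 and Dio2) the Kcna1-dCas9A libraries were all below the controls, against 13.3% of all genes tested. These 3 are among the 6 of the 12 that average at least 10, a class in which 23.9% of all genes separated this way.

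Selenoi makes phosphatidylethanolamine and was listed at 48, 39 and 39 in the controls and at 32, 23 and 18 with Kcna1-dCas9A. Its log2 fold change was -0.79 (95% interval -1.30 to -0.28, limma adjusted p = 0.084 with Benjamini-Hochberg adjustment), and it passed under 6 of 16 alternatives. Sephs2 makes the selenium donor for selenocysteine and is itself a selenoprotein. It was listed at 27, 20 and 15 in the controls and at 8, 14 and 11 with Kcna1-dCas9A. Its log2 fold change was -0.85 (limma adjusted p = 0.121 with Benjamini-Hochberg adjustment), and 1 unit lay between the groups. Dio2, the deiodinase that activates thyroid hormone and is known from astrocytes, was listed at 21, 19 and 22 in the controls and at 15, 16 and 17 with Kcna1-dCas9A (log2 fold change -0.35, limma adjusted p = 0.181 with Benjamini-Hochberg adjustment).

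The other 9 overlapped between groups. Selenoh, a nuclear thioredoxin-like protein, ranged from 39 to 64 in the controls and from 44 to 58 with Kcna1-dCas9A (log2 fold change -0.03). The mitochondrial reductase Txnrd2 ranged from 4 to 8 and from 6 to 11 (log2 fold change 0.47), and Txnrd3 from 16 to 20 and from 12 to 18 (log2 fold change -0.18). Msrb1, a methionine sulphoxide reductase, ranged from 13 to 18 and from 11 to 19 (log2 fold change -0.11). Selenon, of the ER membrane, Selenoo, of mitochondria, and Dio3, which inactivates thyroid hormone, stayed at or under 12, with log2 fold changes of -0.07, 0.26 and -0.11. Gpx2 and Gpx3 did not exceed 2. The signs of Selenoh and Selenon changed under 5 alternatives each, of Msrb1 and Gpx2 under 2 and of Dio3 under 1. With 1 library left out the log2 fold change ran from 0.25 to 0.69 for Txnrd2, from -0.28 to -0.008 for Txnrd3 and from 0.004 to 0.50 for Selenoo.

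**Figure D3:**
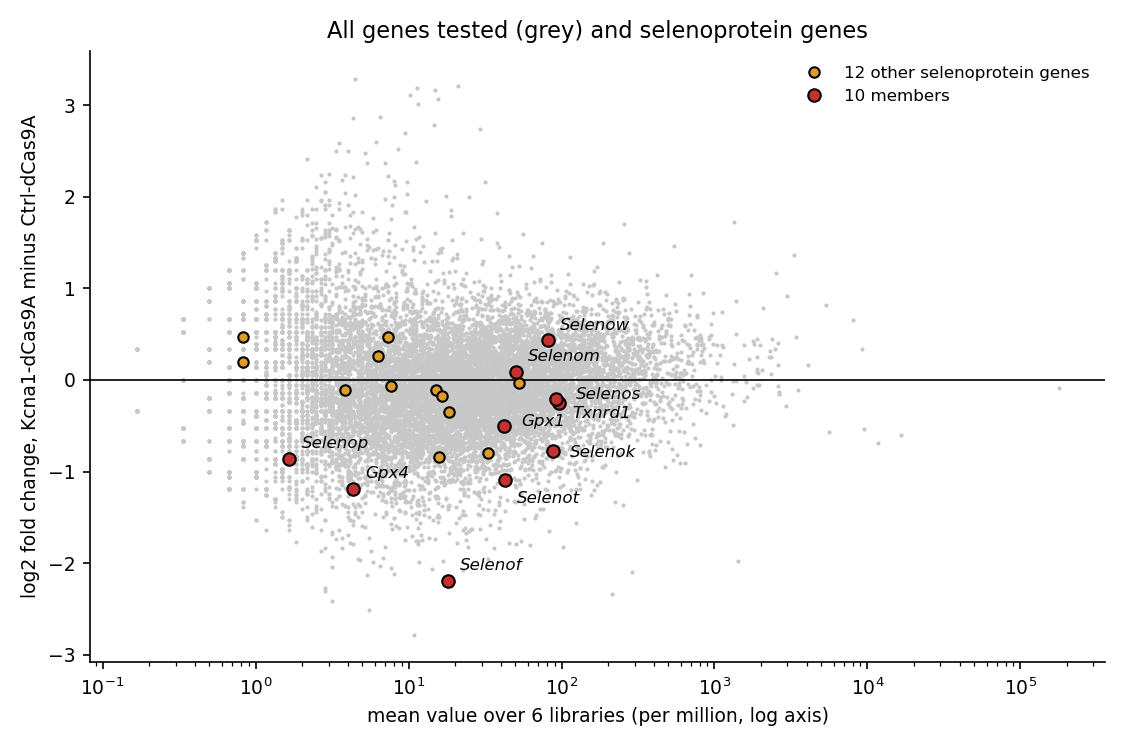
Log2 fold change (vertical axis, Kcna1-dCas9A minus Ctrl-dCas9A) against the mean value over the 6 libraries (horizontal log axis, per-million value) for all 19504 genes tested (grey), the 10 members (red, named) and the 12 other selenoprotein genes above 0 (orange). Selenof, at -2.19, lies near the lower edge of the cloud and Selenot at -1.09, while the orange points range from -0.85 to 0.47.

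The 12 genes listed that make or insert selenocysteine or take up selenium include Sephs2, which was also counted among the selenoproteins. Of the 12, 0 passed in either direction with limma, 5 had an unadjusted p under 0.05, against 23.2% of all genes and 39.7% of those averaging at least 10, and the median log2 fold change was -0.36. In 4 of 12 the Kcna1-dCas9A libraries were all below the controls, against 13.3% of all genes and 23.9% of those averaging at least 10, and in 0 all above. The highest value (3′ reads, not divided by length) belonged to Sars, the synthetase that loads serine onto the selenocysteine transfer RNA and onto ordinary serine transfer RNAs. Sars was listed at 178, 176 and 305 in the controls and at 298, 334 and 289 with Kcna1-dCas9A. Control replicate 3 was level with the Kcna1-dCas9A libraries and the other two controls were far lower (log2 fold change 0.53, limma adjusted p = 0.197 with Benjamini-Hochberg adjustment).

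Of 7 enzymes that use cysteine where related selenoproteins use selenocysteine (Msra being related by its reaction only), Gpx6 was listed at 0. Of the other 6, 0 passed in either direction with limma, 1 had an unadjusted p under 0.05, against 23.2% of all genes, and the median log2 fold change was -0.37. The highest value was that of Msra, a methionine sulphoxide reductase, at 62, 54 and 48 in the controls and 44, 41 and 42 with Kcna1-dCas9A. The groups did not overlap, and the log2 fold change of -0.35 did not pass (limma adjusted p = 0.144 with Benjamini-Hochberg adjustment).

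Among 13 genes of ER folding and degradation that work beside Selenof, Selenok and Selenos, Derl3 was listed at 0, 1 of the other 12 fell and 0 rose, against 0.81% and 0.349% of all genes, and the median log2 fold change was -0.07, against -0.02 for all genes. Of these 12, 10 averaged at least 10, a class in which 1.7% of all genes were called lower. The gene that fell was Pdia3, a disulphide isomerase for glycoproteins. It was listed at 234, 230 and 190 in the controls and at 127, 125 and 135 with Kcna1-dCas9A, with no overlap between groups. Its log2 fold change was -0.75 (standard error 0.11, limma adjusted p = 0.0486 with Benjamini-Hochberg adjustment). Calr, the lectin chaperone calreticulin and the gene with the highest value, lay the other way, at 672, 703 and 962 in the controls and 1029, 1112 and 1065 with Kcna1-dCas9A. Its groups did not overlap, but the log2 fold change of 0.47 did not pass (limma adjusted p = 0.107 with Benjamini-Hochberg adjustment). Uggt1, the UGGT enzyme that Selenof binds, named here after its values were seen, was listed at 77, 81 and 95 in the controls and at 102, 87 and 111 with Kcna1-dCas9A, with overlap. Its log2 fold change was 0.24 (95% interval -0.07 to 0.55). Syvn1, the ubiquitin ligase of ER degradation, was also named after its values were seen and had the lowest log2 fold change of this list, at -1.70. It was listed at 21, 19 and 10 in the controls and at 4, 6 and 3 with Kcna1-dCas9A, without overlap. It did not pass (limma adjusted p = 0.055 with Benjamini-Hochberg adjustment) but did under 7 of 16 alternatives.

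Among 12 genes of glutathione and thioredoxin metabolism, 2 fell and 0 rose, against 0.81% and 0.349% of all genes, with a median log2 fold change of -0.31, against -0.02 for all genes. Of these 12, 8 averaged at least 10, a class in which 1.7% of all genes were called lower. Txn1, the cytosolic thioredoxin that Txnrd1 reduces and the gene with the highest value of the list, was listed at 211, 185 and 163 in the controls and at 67, 59 and 60 with Kcna1-dCas9A. The groups lay far apart, with means of 186 ± 24.0 and 62.0 ± 4.36 (SD, n = 3 each) and a log2 fold change of -1.57 (standard error 0.12, limma adjusted p = 0.034 with Benjamini-Hochberg adjustment). A Txn1 pseudogene is annotated. Gsr, glutathione reductase, which restores the glutathione that Gpx1 and Gpx4 use, was listed at 25, 21 and 16 in the controls and at 7, 8 and 5 with Kcna1-dCas9A (log2 fold change -1.50, limma adjusted p = 0.0496 with Benjamini-Hochberg adjustment). All Kcna1-dCas9A values of Gsr were below the lowest control. Pdia3 and Gsr passed under 9 of 16 alternatives each and Txn1 under 10, and with 1 library left out they passed only without Ctrl-dCas9A replicate 3.

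**Figure D4:**
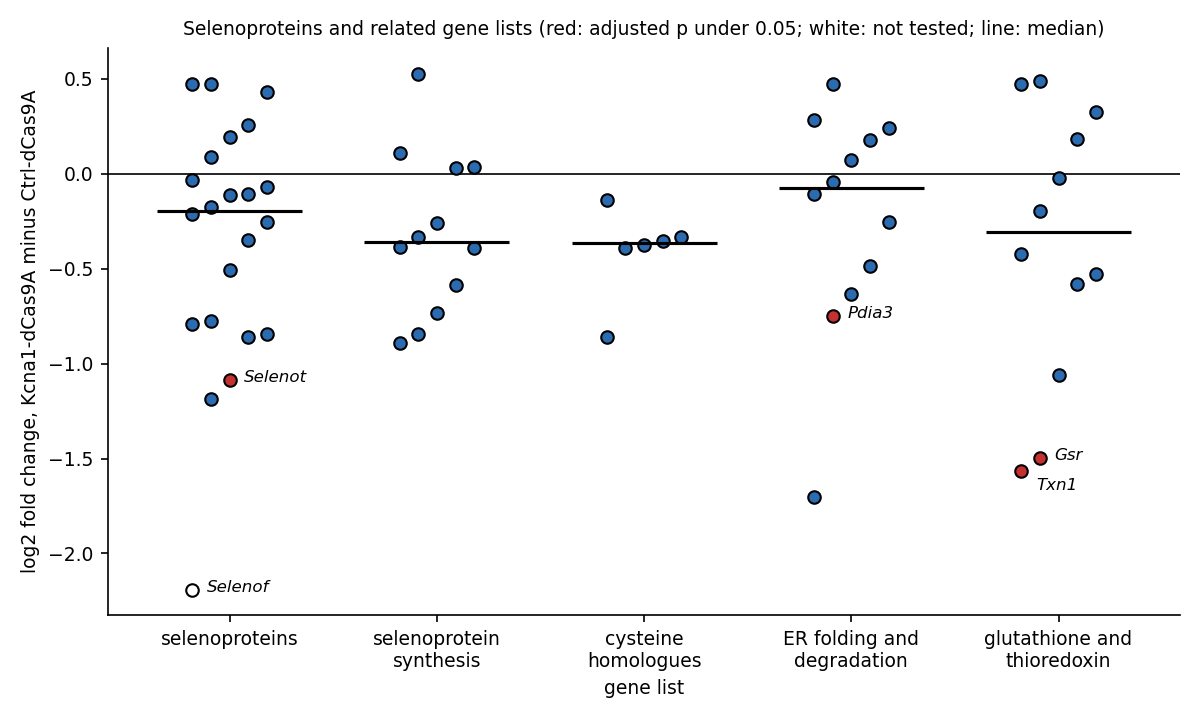
Log2 fold change (vertical axis, Kcna1-dCas9A minus Ctrl-dCas9A) of each gene above 0 in the selenoprotein list and in the 4 related lists, with red for an adjusted p under 0.05, blue for the rest, white for Selenof and a line at each median. Selenot, Pdia3, Gsr and Txn1 are red and below 0, and the medians run from -0.37 to -0.07.

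Markers of cell types other than neurons were detected in these cultures, and some differed between the groups. Of all genes tested, 0.81% were called lower and 0.349% higher. The summed value of 8 astrocyte markers was 906 to 1013 in Ctrl-dCas9A and 662 to 689 in Kcna1-dCas9A, with all 8 detected. In log2 fold change 7 of these 8 were below 0 and 1 above 0. Their groups overlapped in 3, and Aqp4, Aldoc and Sox9 were called lower. The summed value of 7 oligodendrocyte lineage markers was 65 to 97 and 38 to 43, with Mog at 0, Olig2 called lower, and of the 6 detected markers 5 below 0 and 1 above 0 in log2 fold change, the groups of the latter not overlapping. The 8 microglia markers summed to 23 to 27 and 55 to 73, with P2ry12 at 0, C1qa called higher and 6 of 7 detected markers above 0 in log2 fold change. The 7 neuron markers, all detected and 0 called, summed to 4172 to 4899 and 5296 to 6700, but the higher sum came from Tubb3, named after its values were seen. Without it the other 6 summed to 2294 to 2506 and 2075 to 2137, a difference that lay mostly in Map2 (1614 to 1819 and 1427 to 1466), also named after its values were seen. Of the 7, 3 had a log2 fold change above 0 and 4 below, with a median of -0.02. Markers of dividing cells summed to 87 to 97 and 57 to 61 over 5 genes, and 8 vascular and meningeal markers to 9 to 14 and 4 to 9, with 0 called in either list. The part of these shifts in the values of Selenof, Selenot and the other members was not tested. In such bulk RNA, fewer cells of a type and less RNA per cell cannot be told apart.

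The genes next to Selenof were looked up by position. In the order of RefSeq genes on GRCm38.p6, Sh3glb1, an endophilin, is the nearest coding gene on one side and Gm43707, a predicted gene, on the other, followed by Clca3a1 and Hs2st1, respectively. Sh3glb1 was listed at 189, 171 and 147 in the controls and at 128, 130 and 115 with Kcna1-dCas9A. Its groups did not overlap, with a log2 fold change of -0.43 (limma adjusted p = 0.084 with Benjamini-Hochberg adjustment). Hs2st1, a heparan sulphate sulphotransferase, was listed at 54, 49 and 44 in the controls and at 46, 36 and 50 with Kcna1-dCas9A, with overlap and a log2 fold change of -0.16 (95% interval -0.53 to 0.21). Gm43707 was listed at 0, 0 and 3 in the controls and at 5, 6 and 9 with Kcna1-dCas9A (limma adjusted p = 0.073 with Benjamini-Hochberg adjustment), and Clca3a1 stayed at or under 2. Gm43707 overlaps Hs2st1 in RefSeq, so that their reads may have been shared.

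The genes whose pattern over the 6 libraries was most like that of Selenof were found by Pearson's r of log2(value + 1) among 8049 other genes averaging at least 10. They were Ufd1l (r = 0.999), which works with VCP in the degradation of ER proteins, Srsf2 (r = 0.998), a splicing factor, Gid8 (r = 0.997), a subunit of a ubiquitin ligase, Fam213a (r = 0.997), a peroxiredoxin-like protein, and Fabp7 (r = 0.997), a fatty acid binding protein of astrocytes and radial glia. Over 6 points split into 2 groups such values are common, and 525 genes had an r above 0.95. Fabp7 came closest to Selenof in size, at 635, 471 and 301 in the controls and at 118, 82 and 117 with Kcna1-dCas9A (log2 fold change -2.09). Gid8 was listed at 67, 61 and 42 and at 23, 19 and 21 (log2 fold change -1.37). Ufd1l, at 69, 66 and 58 and at 46, 42 and 45, had a log2 fold change of -0.52, Fam213a -0.82 and Srsf2 -0.28.

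**Figure D5:**
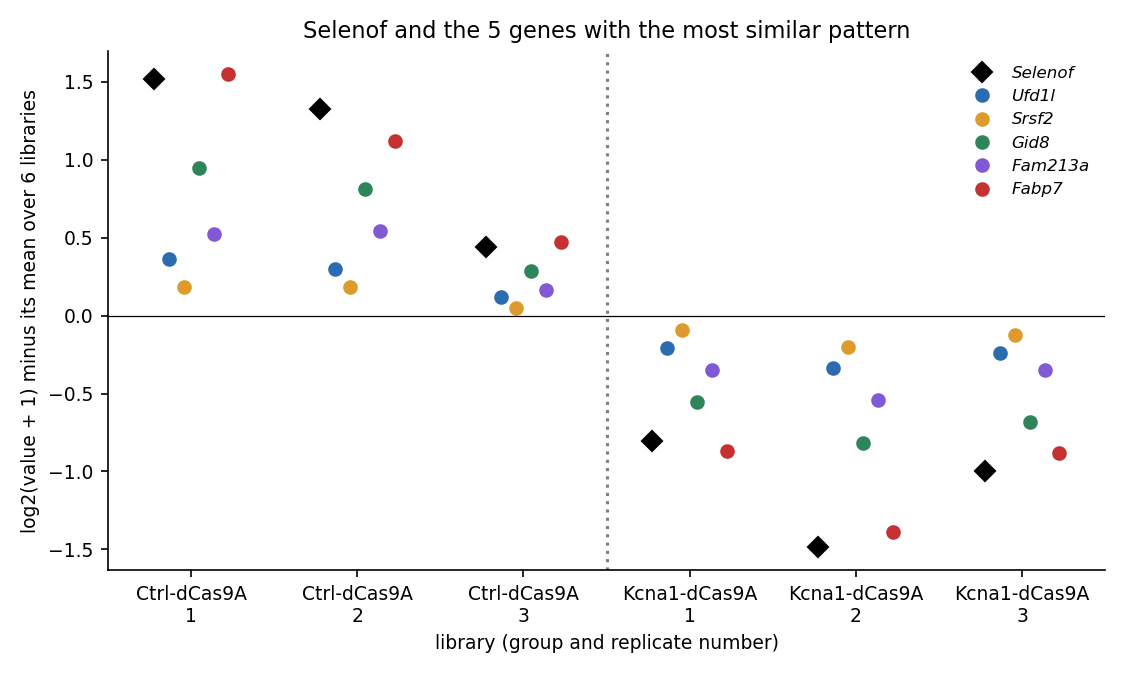
Log2(value + 1) minus its mean over the 6 libraries (vertical axis) for Selenof (black diamonds) and the 5 genes with the highest Pearson's r to it (coloured circles) in each library (horizontal axis), with a dotted line between the groups. The shared order of the libraries follows from how the genes were chosen, and they differ in how far apart the groups lie, from -0.28 for Srsf2 to -2.19 for Selenof.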

How the data were processed

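RNA from 3 Ctrl-dCas9A and 3 Kcna1-dCas9A libraries, grouped by the treatment in the labels, was prepared with a QuantSeq 3′ kit, which reads transcript ends, so that values are not divided by length. The study's methods name Bowtie2 and NCBI37/mm9 for these libraries and DESeq2 for the differential expression, whereas the submitters' processing notes name STAR 2.7, featureCounts, DESeq2 and mm10. Counting options and annotation are not given in the sources used here. The values deposited by the authors are a score, a whole number per gene, taken to be a rounded per-million value because the 6 libraries sum to nearly the same total (999047 to 999717), which raw counts would not do, though no source states it. Read depth is unknown, so no intervals or floors that need it are given.

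Values were tested as log2(value + 1) with limma 3.58.1 (lmFit, eBayes with intensity trend) in R 4.3.3, with group as the only factor, over the 19504 genes above 0 in at least 1 library, with a threshold of 0.05 for the Benjamini-Hochberg adjusted p. Count models were not run, because the values are not counts. The script was tested on simulated data. With 3 libraries against 3, an exact permutation test could not give a p below 0.1 and was not used.

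The members, gene lists, marker lists and alternatives were chosen with earlier results of these data known. Genes named were the 10 members, other selenoproteins above 0, of the related lists every gene past the threshold and the one with the highest value, Kcna1, the 5 genes most like Selenof, the 2 nearest coding genes on each side, and markers past the threshold or at 0. Uggt1, Syvn1, Tubb3 and Map2, and Dio1, Selenov, Gpx6 and Derl3, which were listed at 0, fall outside this rule. Alternatives were other pseudocounts, filters, scalings, a fit without intensity trend, a replicate block and each library left out. Current symbols were matched to GENCODE vM1 through RefSeq synonyms of GRCm38.p6, and selenocysteine codons were read from its coding sequences in Python 3.11.15.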

Additional observations from a re-analysis of the deposited data

How the results depend on the processing

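The log2 fold change of Selenof was -1.68 with a pseudocount of 5 and ranged from -2.52 to -1.98 with 1 library left out. The number of genes called, 226 (1.16% of those tested), became 627 (3.21%, pseudocount of 0.1), 475 (2.44%, pseudocount of 5), 1543 and 2289 (11.3% and 28.4%, mean value of at least 1 and 10), 2405 (4.76%, no filter, where most residual variances are 0 and the fit is unreliable), 1721 (8.82%; 963 higher, 758 lower; median-of-ratios), 2058 (10.6%; 1226 higher, 832 lower; upper-quartile), 1768 (9.07%, without Gm42418) and 201 (1.03%; 117 higher, 84 lower; no intensity trend).

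Of the 9 members other than Selenof, 3 were called, all lower, with either mean filter and with no filter. In these settings 7.17% (mean of at least 1), 17.0% (at least 10, which 7 of the 9 reach) and 2.66% (no filter) of all genes tested were called lower. With median-of-ratios, upper-quartile or Gm42418 removed, 2 of the 9 were called lower, against 3.89%, 4.27% and 5.58% of all genes. Without the intensity trend 0 were called, against 0.431% of all genes called lower. Selenot was among those called in each setting that called any, and Selenok in each that called more than 1. The list counts that follow pool both directions. Apart from those of the selenoproteins, they are to be read against the shares of all genes called that stand beside the totals. For all 24 selenoproteins they were 5 and 6 with a mean of at least 1 and 10, and 6 with no filter. They were 4 with either scaling and without Gm42418, and 0 without the trend. Every such count above 0 includes Selenof, whose pass is no test result because it was chosen for its difference. The selenoprotein counts are therefore not read against those shares. Selenot, Selenok and Selenoi were also in each of these counts above 0. Gpx1 was added with either mean filter, Gpx4 with no filter, and Sephs2 with no filter or a mean of at least 10. The synthesis list gave 1 call with a pseudocount of 5, a mean of at least 1, median-of-ratios or Gm42418 removed, 4 with a mean of at least 10 (which 7 of the 12 reach), 3 with no filter and 2 with upper-quartile scaling, the last 3 counts each with 1 higher gene, Sars. Sephs2, which is in both lists, was in the counts of 4 and 3 and among the selenoproteins called in the same settings. The ER list gave 2 with a mean of at least 1 and without Gm42418, 3 with a mean of at least 10 (which 10 of the 12 reach), no filter or either scaling, each 3 with 1 higher gene, Calr, and 0 without the trend. The glutathione and thioredoxin list gave 3, all lower, with either mean filter, no filter, either scaling and without Gm42418, and 1 without the trend. Why the counts move was not tested.

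With 1 library left out, the counts ran from 0 to 2711 (all genes), 0 to 2 (9 members), 0 to 2 (synthesis), 0 to 1 (cysteine enzymes, Msra), 0 to 3 (ER) and 0 to 2 (glutathione and thioredoxin), and every call came from the fit without Ctrl-dCas9A replicate 3, in which 14.2% of all genes tested were called (8.12% lower). The 2 members were Selenok and Selenot, and no further selenoprotein was called among those other than Selenof. With the replicate block, 0 genes were called over all genes and in every list, with 4326 at an unadjusted p under 0.05 in limma. Libraries with the same number correlated in their deviations by 0.01, 0.11 and 0.15. Each Kcna1-dCas9A library correlated best with the control of its own number, and controls 2 and 3 also matched best by number. Control 1 correlated best with Kcna1-dCas9A replicate 2, at 0.10. Whether the numbers pair the samples is therefore not settled, and the main fit used group only. For 28 single genes, 377 of 438 values under the alternatives kept their side of the threshold, 28 newly passed it, 33 no longer did and 0 reversed a call. Rounding and unknown depth limit genes of a few units, and the pseudocount moved the log2 fold changes of Gpx4, Selenop, Gpx2, Gpx3, Txnrd2, Selenon, Selenoo and Dio3 by over 1.5 times.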
